A study of Homo sapiens with 8 samples.

Results

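KDM2A peaks on ribosomal DNA repeats and on the unplaced sequences of the human assembly were described in neural progenitor cells. The set held every peak of the KDM2A list that lay on chromosome 21 and ended below 13 Mb, and every peak on a scaffold, a stretch of sequence without a settled place on a chromosome. It comprised 2922 of 504724 peaks (0.579%, exact binomial 95% interval 0.558% to 0.600%), 922 of them on chromosome 21 and 2000 on 115 scaffolds. The 922 peaks lay between positions 5057073 and 12994926, a stretch that takes in the short arm and the centromere. The members were chosen by position within a list of called peaks, and their pileup, length, fold and FDR come from that same list. They are therefore given as descriptions, with no test. The label ribosomal DNA covers few of them by number, since 33 peaks had their midpoint in an annotated 45S gene, so they are called here the chromosome 21 and scaffold peaks.

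The cells came from the established embryonic stem cell line H9 (human), which was infected with lentivirus at a multiplicity of 20 and selected with 1 ug/ml puromycin before it was turned into neural progenitors. H3K36me2 was precipitated from progenitors with the KDM2A hairpin sh1, from progenitors with the KDM2A hairpin sh4 and from progenitors with the control lentivirus (NC). KDM2A was precipitated from the control progenitors. Each group holds 1 library, so no value has a spread between cultures. Whether the cells of a group were a clone or a pool, and how far each hairpin lowered KDM2A, were not given in the sources used here. Peak lists hold no RNA, so the label neural progenitor could not be checked against its markers.

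KDM2A is a histone demethylase that removes methyl groups from lysine 36 of histone H3 and reaches DNA through a zinc finger that binds unmethylated CG dinucleotides. Human ribosomal RNA is transcribed by RNA polymerase I as a 45S precursor, from tandem repeats on the short arms of the acrocentric chromosomes, in the order 5' external spacer (5' ETS), 18S, first internal spacer (ITS1), 5.8S, second internal spacer (ITS2), 28S and 3' external spacer (3' ETS). An intergenic spacer separates 1 repeat from the next. KDM2A has been reported at ribosomal DNA promoters in a human breast cancer cell line, where it lowers ribosomal RNA transcription during starvation. A cell carries far more repeats than the assembly, so reads of many repeats fall on the few copies drawn there. How reads that match several copies were placed is not given in the sources used here, and a pileup on these sequences cannot be read as the occupancy of 1 copy.

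Of the sequences at hand, those of microRNA genes are printed to show the CG content of sites with and without a peak. Among those under a peak, MIR6724-4 and MIR10396B lie before and in RNA45SN1, and MIR3648-2 lies far from any annotated 45S gene. RefSeq (GRCh38.p14) lists 9 microRNA genes on chromosome 21 below the 13 Mb limit, and 3 of them overlapped a KDM2A peak. The share of all microRNA genes with a peak was not counted, so 3 of 9 cannot be called high or low. The capitals mark every CG, the dinucleotide that the KDM2A zinc finger recognises. CG reads the same on both strands, and its matches do not overlap.
MIR6724-4 hairpin (chr21:8432530-8432621, plus strand, from base -692 of RNA45SN1): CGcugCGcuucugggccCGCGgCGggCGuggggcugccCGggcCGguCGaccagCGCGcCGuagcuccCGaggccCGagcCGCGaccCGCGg
MIR10396B hairpin (chr21:8436324-8436374, plus strand, in the 5' ETS of RNA45SN1): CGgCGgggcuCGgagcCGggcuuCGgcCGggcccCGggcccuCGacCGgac
MIR10396A hairpin (chr21:8987617-8987665, plus strand): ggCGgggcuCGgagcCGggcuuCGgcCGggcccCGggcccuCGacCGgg
hsa-miR-3648 mature, from MIR3648-2 (chr21:8987026-8987046, plus strand): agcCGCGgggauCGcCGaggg
The MIR6724-4 hairpin has 18 CG in 92 bases and lay inside a peak of fold 5.14. The hairpin of MIR6724-2 is identical over its 92 bases and overlapped no peak, and of the 4 MIR6724 genes in the annotation 1 overlapped a peak. MIR10396B (9 CG) lay inside a peak of fold 2.47 and pileup 55, while MIR10396A (8 CG) overlapped none. MIR10396A lay in the gap between chr21:8986964-8987490 (pileup 170) and chr21:8987846-8988150 (pileup 210), so it is not a site far from peaks. The peak over MIR3648-2 (chr21:8986964-8987490) had a pileup of 170 and a fold of 2.53, and MIR3648-1, which lies inside RNA45SN2, overlapped none. The MIR6724 hairpin sequence thus stood inside a peak at 1 place in the assembly and outside any peak at another.

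The chromosome 21 and scaffold peaks stood high, over a background that was also high. Pileup, the authors' height of stacked fragments at a peak, had a median of 13 in the set (10th to 90th percentile 8 to 31, highest 217), against 8 in all other peaks (6 to 10, highest 235). The local background, recovered from each peak's pileup and fold, had a median of 4.97 in the set (90th percentile 14.3, highest 132) and 2.60 in all other peaks (90th percentile 3.81). The fold over that background had a median of 2.25 in the set (10th to 90th percentile 1.66 to 3.15) and 2.33 in all other peaks (1.87 to 3.04). Typical members therefore had more fragments than other peaks and no larger ratio to their surroundings. Their median length of 226 bp (90th percentile 429 bp) was close to the 215 bp of all other peaks (90th percentile 381 bp).

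**Figure D1:**
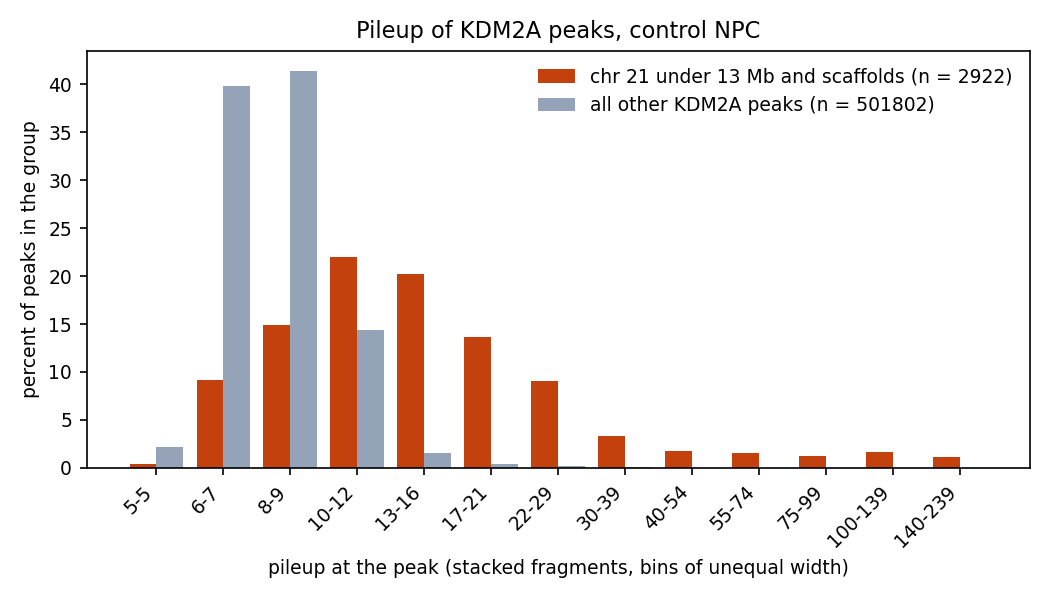
Percent of peaks (y axis) in each class of pileup (x axis, stacked fragments, classes of unequal width) for the 2922 chromosome 21 and scaffold peaks in orange and the 501802 other KDM2A peaks in grey, 1 library. The orange bars reach far to the right of the grey ones, and their medians are 13 and 8.

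The tall end of the KDM2A list lay to a large part on these sequences. A pileup of 50 or more was found at 172 of the 2922 members (5.89%) and at 240 of the 501802 other peaks (0.0478%), against 0.0816% of the whole list, so the set held 41.7% of all 412 such peaks. At a pileup of 100 or more it held 80 of 133. An FDR under 0.05 was given to 544 members (18.6%, exact binomial interval 17.2% to 20.1%), against 3.13% of the whole list and 2.42% of the 5368 peaks of chromosome 21 beyond the limit. Within the set the share was 20.7% on chromosome 21 and 17.65% on scaffolds. The authors' p-value follows from pileup and background alone, so at an equal fold a taller peak receives a lower FDR, and this share moves with the pileup just described. A fold of 4 or more was found at 54 members (1.85%) and at 3130 other peaks (0.624%).

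**Figure D2:**
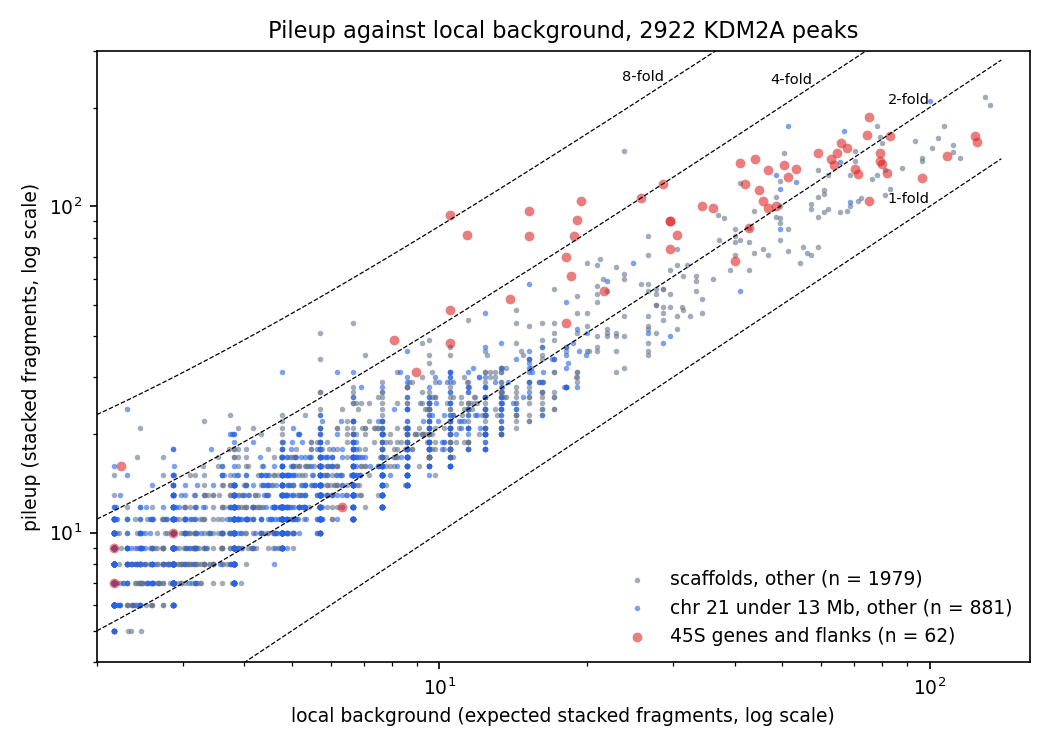
Pileup (y axis) against local background (x axis), both in stacked fragments on log scales, for the 2922 members, with peaks of the 5 annotated 45S genes and their flanks in red and dashed lines of equal fold. Most points lie along the 2-fold line over the whole range of heights, and 8 red points of pileup 50 or more lie at or above the 4-fold line.

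Members were frequent among the lowest p-values of the list. Of its 10 peaks with the lowest p-values 6 belonged to the set, 4 of them in the 45S genes and the flanks described below. Of the first 50 there were 25, and of the first 100 there were 37. The lowest FDR of the whole list, 5.54e-58, was that of a scaffold peak (KI270733.1:166519-166825, pileup 148, background 23.8, fold 6.0). That peak began 4493 bases before the start of RNA18SP4, an annotated 18S pseudogene. The highest fold in the set, 8.27, was that of a peak behind the 28S gene of RNA45SN4 (KI270733.1:136556-136748, pileup 94, background 10.5, FDR 1.45e-48). The 3 greatest heights of the set had lower folds and lay outside the annotated 45S genes and their flanks. GL000224.1:11854-12226 had a pileup of 217 and a fold of 1.67, chr21:8987846-8988150 a pileup of 210 and a fold of 2.09, and KI270709.1:15067-15237 a pileup of 204 and a fold of 1.54. The chromosome 21 peak among these lay near MIR3648-2 and MIR10396A. Their namesakes MIR3648-1 and MIR10396B begin at base 2485 of RNA45SN2 and base 3102 of RNA45SN1. Whether this place holds ribosomal sequence outside the annotated genes was not tested. The fourth highest of the set was in an annotated 45S gene, over the 28S gene RNA28SN2 (chr21:8218507-8219154, pileup 188, fold 2.48). The longest member spanned 1496 bp of RNA28SN1 (chr21:8441919-8443414, pileup 106, fold 4.0), and the fifth longest, 1203 bp, ran over the start of RNA18SN1 (chr21:8436619-8437821, pileup 140, fold 3.13). The 3 between them in length lay on KI270442.1, GL000218.1 and KI270743.1, with 1389, 1267 and 1257 bp and pileups of 25, 21 and 13.

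Peaks in the 45S genes were taller than the rest of the set and had a somewhat higher fold. The 33 peaks with a midpoint in 1 of the 5 annotated 45S genes had pileups of 7 to 188 (median 99), a median background of 36.2 and a median fold of 2.73 (1.68 to 6.71), and 31 of them (93.9%) had an FDR under 0.05. With the 5 kb before and the 10 kb after each gene, a window chosen once the values were known, 62 peaks were counted, with a median pileup of 104, background of 41.5 and fold of 2.47. The other 2860 members had medians of 13, 4.89 and 2.25, and 17.2% of them had an FDR under 0.05. Among peaks with a pileup of 50 or more, the median fold was 2.45 for the 52 in the 45S genes and flanks, 1.90 for the 120 in the rest of the set and 2.06 for the 240 other peaks of the list. Their median pileups were 117, 85 and 73 and their median backgrounds 46.2, 48.6 and 35.3, so these groups still differed in height.

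The 3 copies on chromosome 21 also held peaks more densely than the other 10 kb windows with a peak on this stretch. RNA45SN1, RNA45SN2 and RNA45SN3 had 23 peak midpoints in 39.975 kb (0.575 per kb), against 899 in 3860 kb of the other 10 kb windows with at least 1 peak (0.233 per kb). The ratio was 2.47, with a 95% counting interval of 1.56 to 3.73. The copies share sequence, so their peaks may not be independent counts, and the interval covers counting error only. Over the whole span of the peaks on this stretch of chromosome 21, gaps included, the ratio was 5.05. Neither ratio sets the genes against their own flanks, which also held peaks. In the 5 kb before and the 10 kb after the gene, RNA45SN1 had 3 and 5 peaks, RNA45SN2 1 and 4, and RNA45SN3 2 and 3. The genes themselves had 10, 5 and 8.

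The 5 copies did not carry the same peaks. RNA45SN1 (chr21:8433222-8446572) held 10, all with an FDR under 0.05, which covered 46.9% of the gene and had a median pileup of 114.5, background of 46.2 and fold of 2.42. RNA45SN2 (chr21:8205988-8219302) held 5, which covered 14.8% and had medians of 91, 19.1 and 3.99. RNA45SN3 (chr21:8389035-8402343) held 8, of which 6 had an FDR under 0.05, which covered 19.8% and had medians of 43.5, 9.72 and 2.89. RefSeq lists RNA45SN4 and RNA45SN5 without a chromosome position that can be used, and they were laid on KI270733.1 (122273 to 135645) and GL000220.1 (105424 to 118780), the scaffolds known to hold them, with the coordinates of their RefSeq entries. Each of these held 5 peaks, with a median pileup of 90 in RNA45SN4 and 99 in RNA45SN5 and a coverage of 12.5% in RNA45SN4 and 11.7% in RNA45SN5. RNA45SN1 thus had the widest peak cover of the 5 copies. The front of RNA45SN3 held few and low peaks, with 2 in its first 7 kb, of pileup 7 and 9. RNA45SN2 also had 2 there, of pileup 70 and 16, while those of RNA45SN1 had pileups of 55 to 140.

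**Figure D3:**
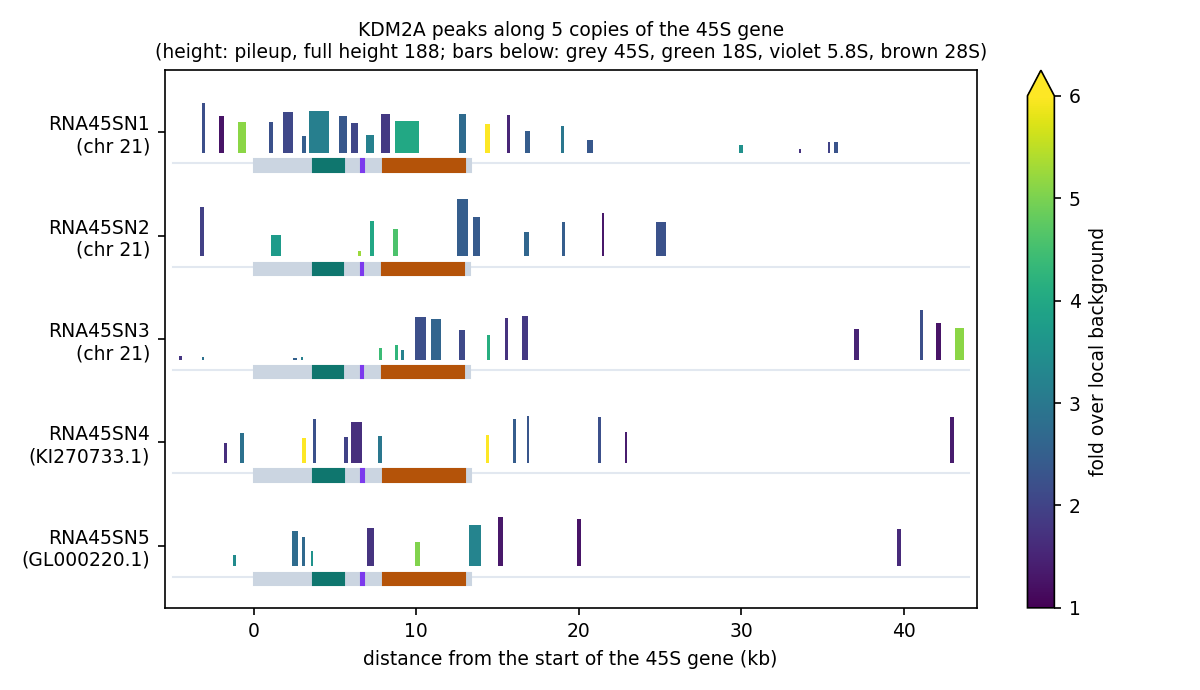
KDM2A peaks along 5 copies of the 45S gene, by distance from the gene's start (x axis, kb), with height as pileup on 1 common scale (full height 188) and colour as fold over local background. Grey, green, violet and brown bars mark the 45S, 18S, 5.8S and 28S genes. RNA45SN1 begins 44187 bp after RNA45SN3, so the 3 peaks at the right end of the RNA45SN3 line are those before RNA45SN1. The positions of the peaks differ between copies, and folds near 6 or above stand behind the gene in RNA45SN1 and RNA45SN4 and in the 5' ETS of RNA45SN4.

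Along the precursor, peaks lay in the transcribed spacers and in the 18S and 28S genes alike. The 5' ETS held 10 peaks over all 5 copies (0.548 per kb, median fold 2.72), ITS1 4 in 3 copies (0.744 per kb, median fold 2.01) and ITS2 5, 1 in each copy (0.858 per kb, median fold 3.17). The 18S gene, which encodes the RNA of the small ribosomal subunit, held 3 midpoints in 2 copies (0.321 per kb). The 28S gene, for the main RNA of the large subunit, held 11 in 4 copies (0.434 per kb, median fold 2.73). The short 5.8S gene and the 3' ETS held no midpoint, but peaks placed elsewhere reached into both. In RNA45SN2 the peak over bases 6427 to 6607 ran into 5.8S, which begins at base 6583. The peak over bases 12519 to 13166 of that copy ran past the end of 28S at base 12953. Peaks also reached 5.8S in RNA45SN4 and the 3' ETS in RNA45SN1, RNA45SN3 and RNA45SN5. The whole precursor held 0.495 per kb, and with so few peaks a segment the differences rest on small counts.

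Few positions carried a peak in most copies. When the copies were aligned by their start over the 13309 bp of the shortest, 32.1% of the positions had no peak in any copy, 41.0% in 1, 16.8% in 2, 9.44% in 3 and 0.654% in 4, and no position had a peak in all 5. The 87 positions shared by 4 copies lay at bases 2953 to 3039 of the precursor, in the 5' ETS. There the peak of RNA45SN1 had a pileup of 55 and a fold of 2.47, that of RNA45SN3 9 and 3.15, that of RNA45SN4 82 and 6.71, and that of RNA45SN5 99 and 2.69. The peak of RNA45SN3 had an FDR of 0.145, and the others had FDRs under 0.05. RNA45SN4 thus had less than the height of RNA45SN5 and a larger ratio to background, since its background was 11.4 and that of RNA45SN5 was 36.2. Shared by 3 copies were bases 12612 to 13006, near the end of 28S (RNA45SN1, RNA45SN2 and RNA45SN3), with pileups of 129, 188 and 99 and folds of 2.73, 2.48 and 2.10. Bases 7126 to 7364 of ITS2 were shared by RNA45SN1, RNA45SN2 and RNA45SN5, with folds of 3.17, 3.99 and 1.75. Bases 9913 to 10192 of 28S were shared by RNA45SN1, RNA45SN3 and RNA45SN5, with folds of 4.0, 2.21 and 5.05. The copies differ by small insertions, so the same offset need not be the same base in each copy.

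Behind the gene a second group of positions recurred. Bases 14330 to 14475 from the start of the precursor, about 1 kb into the intergenic spacer, lay in a peak in RNA45SN4, RNA45SN1 and RNA45SN3. Those peaks had folds of 8.27, 6.03 and 4.14, over backgrounds of 10.5, 15.2 and 18.8, and FDRs of 1.45e-48, 3.52e-38 and 7.34e-21. All 3 were among the 26 peaks of the whole list with both a pileup of 50 or more and a fold of 4 or more. Of these 26, 9 belonged to the set, 8 of them in the 45S genes and their flanks, and 17 lay elsewhere. Bases 16790 to 16894 lay in a peak in 4 copies, with folds of 2.46 in RNA45SN1, 2.63 in RNA45SN2, 1.84 in RNA45SN3 and 2.34 in RNA45SN4. Farther into the spacer peaks became scarce, and bases 25346 to 29840 had none in any copy.

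Before the gene, where the promoter of RNA polymerase I lies, peaks stood at a distance from the start in 3 of the 5 copies. Bases before the start are counted as negative. RNA45SN1 had a peak over bases -1001 to -493 (chr21:8432221-8432729, pileup 104, background 19.4, fold 5.14, FDR 7.01e-35), the one that covers the MIR6724-4 hairpin printed above. RNA45SN4 had one over bases -851 to -635 (pileup 100, fold 2.86), and RNA45SN5 one over bases -1297 to -1132 (pileup 38, fold 3.40). RNA45SN2 and RNA45SN3 had none within 1.5 kb, although each has a MIR6724 gene there, beginning at base -673. No copy had a peak between bases -492 and 948. About 3 kb before the start RNA45SN1 had a peak of pileup 165 (fold 2.20), RNA45SN2 one of 164 (fold 1.97) and RNA45SN3 one of 10 (fold 2.85), which shared bases -3177 to -3098. The peak of RNA45SN3 was far lower than the others, and its fold was not. Its FDR was 0.186, against 1.94e-14 in RNA45SN1 and 2.58e-10 in RNA45SN2.

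Incomplete repeats carried both tall and low peaks. RNA18SP4 begins 45081 bp after RNA18SN4 on KI270733.1, and RNA18SP5 begins 44211 bp after RNA18SN2 on chromosome 21, close to the 44187 bp between RNA45SN3 and RNA45SN1. The peak of lowest FDR, before RNA18SP4, would lie over bases -835 to -529 of a precursor if that copy is built as its neighbour, which overlaps the stretch with peaks before RNA45SN1 and RNA45SN4. Between it and RNA18SP4 stood 3 further peaks of pileup 125, 138 and 146 with folds of 2.00, 1.94 and 2.85, and over the start of RNA18SP4 one of pileup 69 and fold 3.14. Around RNA18SP5 lay peaks of pileup 119 (fold 2.21), 27 (fold 1.72, FDR 0.437) and 14 (fold 1.57, FDR 0.839). Beyond it, over the 5.8S pseudogene RNA5-8SP10, a peak of pileup 176 (chr21:8256925-8257176) had a background of 51.5 and a fold of 3.37, the seventh lowest p-value of the list (FDR 1.45e-35).

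Heights and densities varied from sequence to sequence, the sequences with 45S genes included. Scaffold lengths were not at hand, so density was taken over the span from the first to the last peak. The 54 scaffolds with at least 10 peaks held 1821 of the 2000 scaffold peaks, with 3.88 to 63.4 peaks per 100 kb (median 25.1). The stretch of chromosome 21 had 11.6 per 100 kb and chromosome 21 beyond the limit 15.9. In windows of 10 kb with at least 1 peak, the stretch below the limit held 2.36 peaks and the rest of chromosome 21 2.10. The median pileup was above 8, the median of all other peaks, in 52 of the 54 scaffolds. The median fold was above their median of 2.33 in 20 of the 54. A greater height was thus the rule on scaffolds, and a greater fold was not.

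The sequences with most members after chromosome 21 were KI270442.1 with 97, KI270743.1 with 82, GL000225.1 with 78, GL000194.1 with 77 and KI270728.1 with 72. GL000225.1 had the highest median pileup of any scaffold with 10 or more peaks, 46.5, over a median background of 27.2, and its median fold was 1.75. It held 35 of the 172 members with a pileup of 50 or more. KI270728.1 lay near the rest of the list, with a median pileup of 9, background of 2.86 and fold of 2.52. The greatest density was that of KI270754.1, with 25 peaks at 63.4 per 100 kb, a median pileup of 28 and 15 of the 25 with an FDR under 0.05. GL000214.1 followed with 46.5 per 100 kb, a median pileup of 28 and 44.7% with an FDR under 0.05. KI270724.1, KI270753.1 and KI270723.1 had 46.3, 45.9 and 44.2 per 100 kb. On GL000224.1, which held the tallest member, 36 peaks had a median pileup of 18 and a median fold of 2.18.

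**Figure D4:**
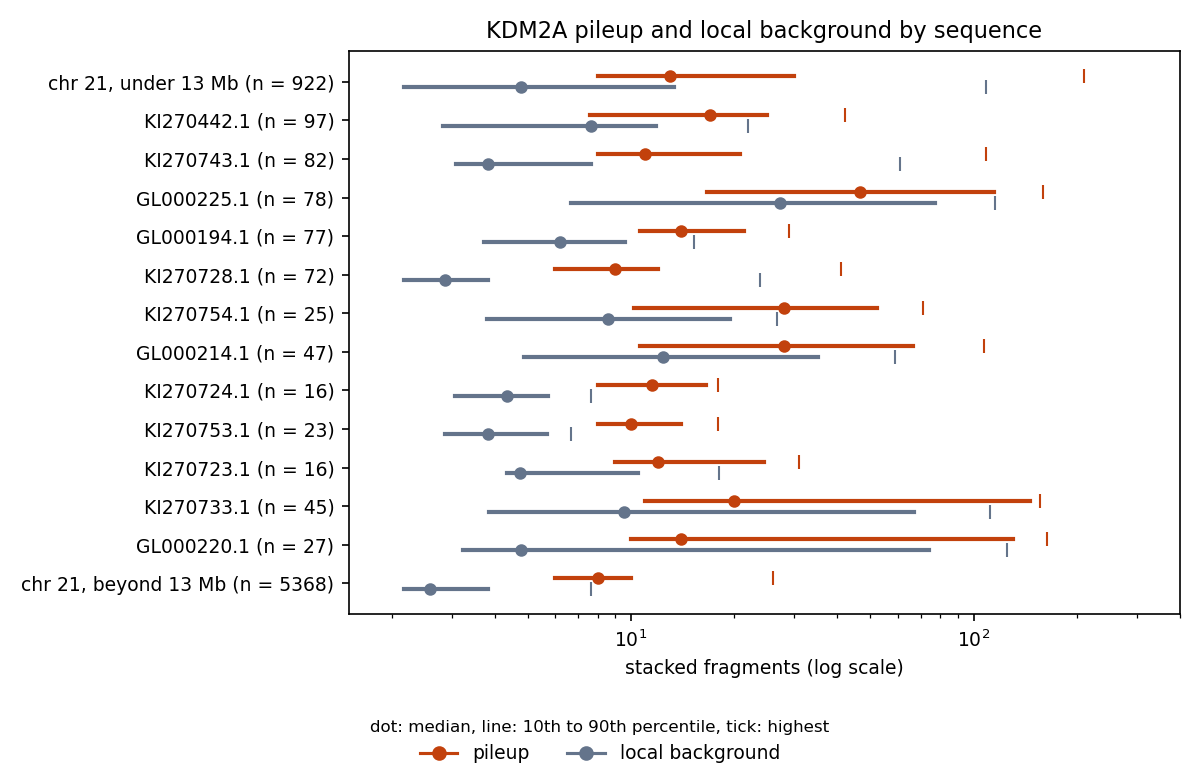
Median (dot), 10th to 90th percentile (line) and highest value (tick) of KDM2A pileup in orange and of the local background in grey, in stacked fragments on a log axis, for the sequences with most or densest peaks, the scaffolds of RNA45SN4 and RNA45SN5, and chromosome 21 beyond 13 Mb at the bottom. Pileup and background move together, from medians of 46.5 and 27.2 on GL000225.1 to 8 and 2.59 on chromosome 21 beyond 13 Mb.

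Along chromosome 21 the tallest peaks and the largest share of low FDRs lay in the 1 Mb that holds the 45S genes. From 8 to 9 Mb there were 122 peaks, 47.5% with an FDR under 0.05 and the highest with a pileup of 210. The most numerous peaks, 268, lay from 9 to 10 Mb, where the highest pileup was 37 and 16.4% had an FDR under 0.05. The 1 Mb next to the limit, from 12 Mb on, had 95 peaks, 29.5% with an FDR under 0.05 and a highest pileup of 137. The other 5 windows of 1 Mb had 56 to 178 peaks, 11.5% to 23.5% with an FDR under 0.05, and highest pileups of 27 to 59. By annotation, 642 of the 922 peaks (69.6%) lay between genes, 106 in long noncoding RNA genes, 92 in pseudogenes, 57 in protein-coding genes, 23 in ribosomal RNA genes and 2 in microRNA genes alone. Where kinds of gene overlapped, a peak was counted once, in the order ribosomal RNA, microRNA, protein-coding, long noncoding RNA, pseudogene. The other peaks of the list were not split in this way, so no share can be called high or low. The 23 in ribosomal RNA genes had a median pileup of 100 and the 57 in protein-coding genes one of 11, and 21 of the 23 and 4 of the 57 had an FDR under 0.05. At the limit itself the last 3 peaks inside had pileups of 17, 12 and 11, and the first 3 outside, of chromosome 21, had 13, 13 and 8. The wider stretches differed more. The median pileup was 13 in the 1 Mb from 12 Mb on and 8 on chromosome 21 beyond the limit. There the highest pileup was 26 and 2.42% had an FDR under 0.05.

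Ordinary promoters of this stretch carried few peaks. RefSeq gives promoter windows of 300 bases, 250 before and 50 after a gene start, for 36 of its 119 annotated genes. Of the 44 windows 3 (6.82%) overlapped a peak, against 19.2% of all 35116 windows of the table. The windows had a median of 14.5 CG, against 14 over all windows, and 95.5% held at least 1, against 96.0%. The 3 genes were TPTE, a membrane protein gene transcribed mainly in testis, the long noncoding RNA LINC01666 and LOC124904993. The first pair is printed to set a CG-rich promoter beside an ordinary one, with CG in capitals.
TPTE promoter (chr21:10521333-10521632, plus strand): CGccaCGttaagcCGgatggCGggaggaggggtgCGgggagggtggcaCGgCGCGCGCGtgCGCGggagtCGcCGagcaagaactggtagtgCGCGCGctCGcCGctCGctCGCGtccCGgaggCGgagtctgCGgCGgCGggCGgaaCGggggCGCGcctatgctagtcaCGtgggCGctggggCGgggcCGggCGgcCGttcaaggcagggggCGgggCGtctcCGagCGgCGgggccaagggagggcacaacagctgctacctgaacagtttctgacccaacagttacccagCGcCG
LINC01666 promoter (chr21:8758829-8759128, plus strand): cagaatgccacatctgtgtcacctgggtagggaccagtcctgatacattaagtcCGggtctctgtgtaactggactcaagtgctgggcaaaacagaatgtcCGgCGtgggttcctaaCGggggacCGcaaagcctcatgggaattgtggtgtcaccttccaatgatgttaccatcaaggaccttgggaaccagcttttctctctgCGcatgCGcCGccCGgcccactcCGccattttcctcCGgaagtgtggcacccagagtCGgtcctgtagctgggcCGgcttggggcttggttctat
The TPTE window has 44 CG, a number that 4.19% of all windows reach, and its peak (chr21:10521425-10521687) had a pileup of 11, a fold of 2.38 and an FDR of 0.307. The LINC01666 window has 13 CG, which 51.7% of all windows reach. It touched a peak of pileup 15, fold 3.18 and FDR 0.0290 by 5 bases and another of pileup 18, fold 1.98 and FDR 0.383 by 134 bases. The peak at LOC124904993 had a fold of 1.93 and an FDR of 0.572. By the peak that lay farthest inside each window, the folds were 2.38 at TPTE, 1.98 at LINC01666 and 1.93 at LOC124904993.

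H3K36me2 regions, which the study set out to compare between hairpins and control, were absent from these sequences in all 3 lists. The sh1 list of 19501 regions, the sh4 list of 21493 and the control list of 19691 each held 0 regions on any scaffold and 0 on chromosome 21 below 13 Mb. Accordingly 0 of the 2922 KDM2A peaks lay inside an H3K36me2 region in sh1, sh4 or the control, and no ratio of hairpin to control could be formed. The first region of chromosome 21 began at 14556601 in sh1, at 14688401 in sh4 and at 14829001 in the control, which is 1556601, 1688401 and 1829001 bp beyond the limit. Of all other KDM2A peaks, 18827 (3.75%) lay inside a region in sh1, 19224 (3.83%) in sh4 and 21472 (4.28%) in the control. On chromosome 21 beyond the limit the numbers were lower, 41 of 5368 (0.764%) in sh1, 30 (0.559%) in sh4 and 63 (1.17%) in the control.

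A single window of 1 Mb without an H3K36me2 region was not rare. All 8 windows of 1 Mb on this stretch of chromosome 21 held at least 20 KDM2A peaks. Of the 2915 other windows with as many, 19.7% had no region in sh1, 20.2% in sh4 and 11.1% in the control. These shares are of single windows, and how often 8 windows in a row lack a region was not counted. Whether the caller was run over the scaffolds at all is not given in the sources used here. Apart from 1 region on chromosome Y in sh1, no list had a region outside chromosomes 1 to 22 and X. The 0 of these lists therefore cannot be read as an absence of H3K36me2 from ribosomal DNA.

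The genes whose products act on ribosomal DNA lie on other chromosomes, and most of them had a KDM2A peak at an end, as most protein-coding genes did. Of 34 genes of RNA polymerase I and of ribosomal DNA chromatin, 30 (88.2%) had a KDM2A peak within 2 kb of either end, against 84% of 19817 protein-coding genes. The list held 0 genes with such a peak at an FDR under 0.05, against 5.55% of protein-coding genes. The highest folds were 3.23 (FDR 0.0644) at POLR1D, a subunit shared by RNA polymerases I and III, 3.21 (FDR 0.0793) at SUV39H1, which methylates lysine 9 of histone H3, 3.02 (FDR 0.0997) at FBL, the nucleolar methyltransferase of ribosomal RNA, and 2.96 (FDR 0.180) at POLR1H, a subunit of RNA polymerase I. UBTF, which keeps active ribosomal repeats open for RNA polymerase I, had a fold of 2.84 (FDR 0.216). DDX21, KDM2A itself, POLR1G and TAF1D had no peak there. The highest fold per gene lay between 1.66 and 3.23 for these 30, with a median of 2.45. The 62 peaks of the 45S genes and flanks had a median of 2.47, and 11 of them reached a fold of 4. That median takes every peak and the one of the 30 genes only the highest per gene, so they are not like for like.

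The other ribosomal RNA, 5S, is transcribed by RNA polymerase III from a tandem cluster on chromosome 1, outside the set. Its 17 annotated RNA5S genes (chr1:228610266-228646158) were overlapped by no peak. How often other genes of their size are overlapped was not counted, so this absence cannot be read as a contrast with 45S. Between them lay 2 peaks, chr1:228620745-228621193 with a pileup of 22, a fold of 3.99 and an FDR of 5.49e-05, and chr1:228622127-228622521 with a pileup of 9, a fold of 3.15 and an FDR of 0.145. Peaks in the 45S genes had a median pileup of 99, but the assembly holds a different number of copies of each repeat, so these heights cannot be set against each other as occupancy.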

How the data were processed

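Of 8 libraries, 4 have a deposited peak list. The submitters' processing notes name Bowtie 1.1.2, MACS2, SICER, hg38 and GRCh38, with no role given. Per the file headers, the authors' KDM2A list gives each peak's pileup (a signal in stacked fragments), fold enrichment (a linear ratio to local background), p-value and FDR. It reaches an FDR of 0.869, so no FDR limit of 0.05 had been applied. The deposited H3K36me2 lists give regions with a fold, p-value, FDR and score, of which positions were used, with starts counted from 0 and shifted by 1.

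Local background was computed as (pileup + 1) / fold - 1. With it, a Poisson model returned the authors' p-value within 0.001 on the log10 scale for 100% of the peaks. Peaks were placed by midpoint, and overlaps needed at least 1 bp. Gene positions came from RefSeq (GRCh38.p14). Python 3.11.15, numpy 2.4.6, pandas 2.3.3, scipy 1.17.1 and matplotlib 3.10.9 were used, and the counting steps were tested on simulated data.

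Depth is unknown, there is 1 library per group, and intervals cover counting error only. Inputs were not analysed here. The members, lists and alternatives were chosen with earlier results of these data known. Named were the 45S copies, the 10 members of highest pileup, the 5 longest, the 6 sequences with most and the 5 with densest members, and up to 4 genes of the RNA polymerase I list. Others were chosen after their values were seen.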

Additional observations from a re-analysis of the deposited data

How the results depend on the processing

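The share of the KDM2A list that falls in the set was 0.579% as reported. It was 3.44% among peaks with an FDR under 0.05, 0.776% among the 10% of highest fold, 0.609% with the limit at 14 Mb, 0.396% for scaffolds only and 0.183% for chromosome 21 only, the last 3 by construction. For the others the cause was not tested. The median pileup was 24 among members with an FDR under 0.05 and 13 under the other alternatives tried. The density on the 45S genes relative to the rest was 3.87 for peaks with an FDR under 0.05 and 5.05 over the whole span, and 2.10 to 2.90 when 1 copy was left out. The share of members with an FDR under 0.05 was 17.2% without the 45S genes and flanks and 14.98% for members with a pileup under 50 (both chosen after seeing the data). Of the RNA polymerase I genes, 0 had a peak with an FDR under 0.05 at an end and 2 had one among the 10% of highest fold, against 5.55% and 16.4% of protein-coding genes. The H3K36me2 ratio of hairpin to control had no value, since all 3 lists held 0 regions on these sequences, and its alternatives were not run. No paired analysis was possible because every group holds 1 library and the labels give no replicate numbers. Pileup on repeated copies and the missing depth limit every height given above.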
